A study of Zea mays with 4 samples.

Results

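On the 10 numbered chromosomes of maize, 219 tight groups of O11 sites were found, holding 712 sites between them. A site is a peak of replicate 1 sharing 1 bp or more with any peak of replicate 2. Sites were chained when neighbouring summits lay at most 5000 bp apart, and chains of 3 or more were kept. Chains starting in the first 5% or the last 5% of a chromosome, or from 30% to under 55% of its length, were left out. The members were thus chosen by the peak calls and summit positions of both replicates. All other values of the peak lists come from the same contrast, so they are described here without a test. Of 14746 replicate 1 peaks on these chromosomes, 9856 were shared (66.8%), and 7135 of these lay in the chromosome parts kept. Grouped sites made up 9.98% of those 7135 (Wilson 95% interval 9.30 to 10.7), while 1438 shared peaks stood in 719 pairs and 4985 stood alone. Both percentages describe the rule itself.

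Opaque11 (O11) is a transcription factor of the basic helix-loop-helix family that acts in the maize endosperm, the starch-storing tissue of the kernel. Factors of this family bind DNA as dimers: the helix-loop-helix holds the partners together and the basic region of each touches the DNA, typically at a short motif called the E-box. Clusters of binding sites for 1 factor are common in plant and animal regulatory DNA, and a peak list alone does not tell separate binding events from binding spread over a longer stretch. Loss of O11 is known to give small, opaque kernels.

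Chromatin was taken from kernels 15 days after pollination and immunoprecipitated with anti-O11, a rabbit antibody raised against the full-length recombinant protein, and then sequenced (ChIP-seq). The 2 libraries of wildtype kernels (WT) were each set against 1 of 2 libraries of mutant (o11/o11) kernels, which the submitters describe as lacking O11 protein and use as the negative control. Both genotypes received the same antibody, and the replicates are described as independent biological ones prepared at different times. The kernel was used whole, so the tissue within it that supplied a site is unknown.

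Each replicate gave 1 peak list, of 14918 peaks for replicate 1 and 16098 for replicate 2. Library depth is unknown from the lists. The precision of a site's fold rests on the WT pileup, which is the coverage stacked at its summit, and on the o11 background. In the groups the pileup had a median of 25 in replicate 1 (11 to 151) and 26.56 in replicate 2 (8.57 to 162.81). The fold enrichments are the authors' own values per peak, WT over the o11 background. That background was low in the groups, at medians of 2.84 in replicate 1 and 2.0 in replicate 2, so a small change in it shifts a fold. Its lowest value in replicate 1, 1.62, was the same in groups, pairs and lone peaks. The value recurred at sites of several of the strongest groups, such as those on chromosomes 2, 7 and 8. Whether it is a local value cannot be told from the lists. The o11 background was recovered from the pileup and the fold, and Poisson intervals given with folds are exact 95% intervals of the WT reads at a fixed background. All intervals cover counting error only, and the Poisson intervals leave out the counting error of the background. Positions are those of B73 RefGen_v3. Genes and sequence at these positions were not analysed here.

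Most groups were small. Groups of 3 sites numbered 177, with 30 groups of 4, 11 of 5 and 1 of 6. From the first to the last base a group spanned a median of 5145 bp (interval of the median 4812 to 5530), with the shortest at 1659 bp and the longest at 11380 bp. The median span was 4881 bp for 3 sites, 6942 bp for 4 and 9249 bp for 5, and the single group of 6 spanned 4989 bp. The peaks themselves covered a median of 36.6% of the span (34.5 to 39.2), from 12.3% to 84.9%, so most of a typical group was sequence between peaks.

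Inside groups, neighbouring summits were a median of 1799 bp apart (1646 to 1931, n = 493 neighbours), with quartiles of 1102 and 3037 bp. Only 7 neighbours lay within 500 bp. From there to 1000 bp there were 92, and 178 lay over 1000 and up to 2000 bp apart, a wider class that held about as many per base. Wider spacings thinned out, with 90, 76 and 50 neighbours in the kilobases that follow. Measured from the end of a peak to the start of the next, the gap had a median of 1211 bp and was never under 127 bp. Grouped peaks were at least 245 bp wide in replicate 1, so the peak calls limit how close 2 summits can be listed. The 2 spacings of a group of 3 were often unequal: the wider was a median of 1.69 times the narrower (1.48 to 2.01), and it was more than 3 times as wide in 32 of 177 groups.

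**Figure D1:**
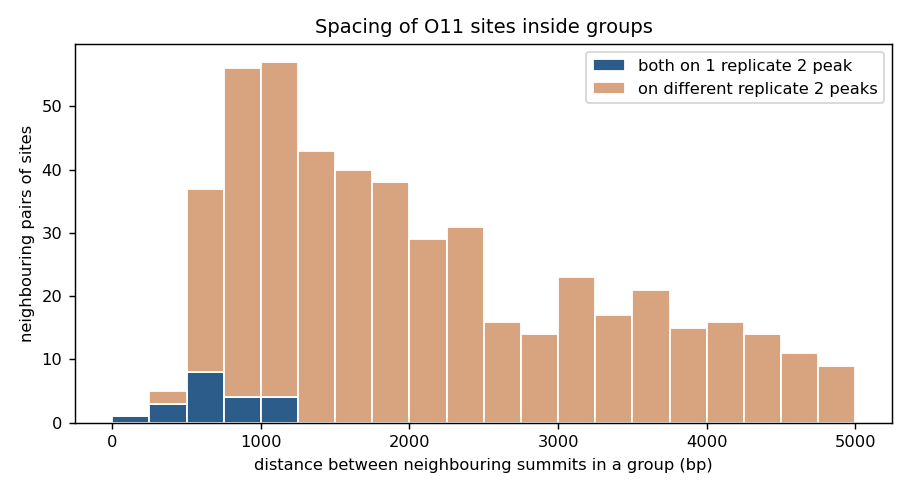
Distance between neighbouring summits inside the 219 groups, in bins of 250 bp, as the number of neighbouring pairs of sites (n = 493). The blue part of a bar counts the 20 pairs in which both sites overlapped the same replicate 2 peak, all of them at 1164 bp or less. Most pairs lie between 500 and 2000 bp.

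The groups were checked against the second list for sites that replicate 2 did not separate. In 20 of the 493 neighbouring pairs (4.06%, Wilson 2.64 to 6.18) both replicate 1 peaks were matched to a single replicate 2 peak. These pairs were close, with a median spacing of 655 bp, and the replicate 2 peak under them was wide, with a median of 1112.5 bp. The 712 sites therefore corresponded to 692 different replicate 2 peaks. Of the 219 groups, 206 rested on at least 3 different replicate 2 peaks, 13 on 2 and 0 on 1. When summits within 1000 bp were merged into 1 site, 155 groups with 499 sites were left, and these overlapped 155 of the 219. Summits of the replicates lay a median of 52 bp apart in groups, 50 bp in pairs and 42 bp at lone peaks. In 24 grouped sites the distance passed 500 bp, and 16 of these shared their replicate 2 peak with another member.

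Grouped sites were about as strong as other sites. Their median fold was 6.41 in replicate 1 (6.09 to 6.64), beside 6.19 in pairs and 6.12 at lone peaks. In replicate 2 it was 8.81 (8.51 to 9.24), beside 8.93 in pairs and 8.97 at lone peaks. The order of the 3 classes was thus opposite in the 2 lists, with the groups highest in replicate 1 and lowest in replicate 2. In replicate 1 a larger share of grouped sites reached a fold of 10, 114 of 712 (16.0%, 13.5 to 18.9) in groups, against 11.7% in pairs and 12.3% of lone peaks. The matching share in replicate 2, at a fold of 15, was 15.4% (13.0 to 18.3) in groups, 16.1% in pairs and 15.5% of lone peaks, so the excess was not seen there. The o11 background of replicate 1 had a median of 2.84 at grouped sites, 2.92 in pairs and 3.21 at lone peaks, and in replicate 2 the medians were 2.0 in each class. The part of this background difference in the replicate 1 folds was not tested.

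**Figure D2:**
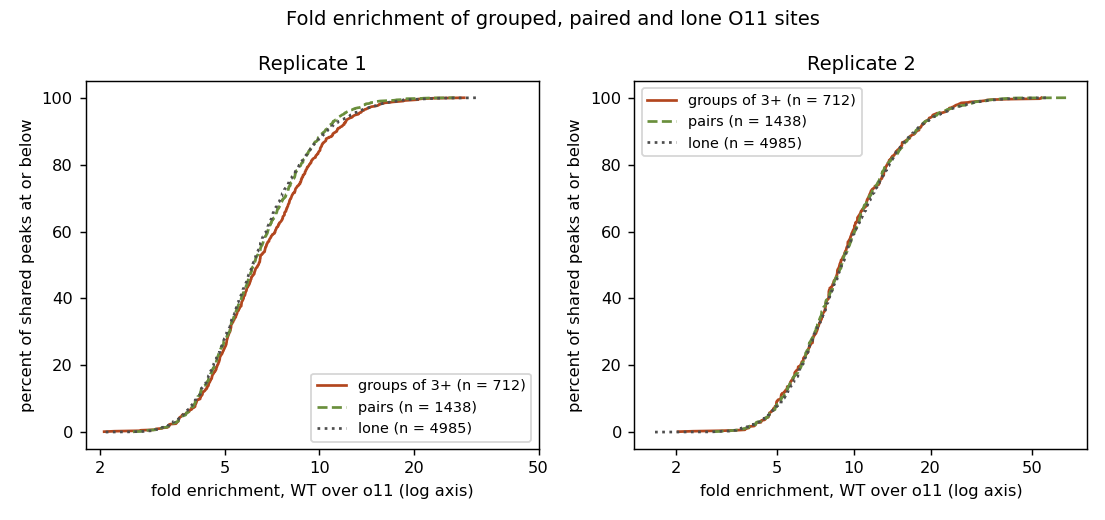
Cumulative share of shared peaks by fold enrichment (log axis) in replicate 1 and replicate 2, for the 712 grouped sites, the 1438 sites in pairs and the 4985 lone sites of the same chromosome parts. The 3 curves run close together in both panels, with medians of 6.41, 6.19 and 6.12 in replicate 1 and 8.81, 8.93 and 8.97 in replicate 2.

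By median width, grouped sites stood above paired and lone sites in both lists. The median width in replicate 1 was 486 bp in groups (461 to 506), 446 bp in pairs (433 to 463) and 422 bp at lone peaks (415 to 428). Replicate 2 gave 459 bp in groups (433 to 479), 426.5 bp in pairs (411 to 440) and 399 bp at lone peaks (393 to 405). The order was the same in both lists. The intervals of groups and lone peaks did not overlap in either, while those of groups and pairs overlapped in both. Such intervals treat sites as independent, which grouped sites are not, and are too narrow. The separation from lone peaks in replicate 1 was not kept at every chain distance. At 2000 bp the grouped median was 433 bp (408 to 461), which overlaps the interval of lone peaks given above. At 3000 bp it was 462 bp (441 to 494) and at 10000 bp 473 bp (453 to 493), both above that interval. Chains at 5000 bp of all replicate 1 peaks, shared or not, had 427 bp (412 to 435), from a different set of sites. Peaks of 1000 bp or more made up 8.15% of grouped sites in replicate 1 (58 of 712, 6.35 to 10.4), 6.40% of paired (5.25 to 7.78) and 4.09% of lone ones. In replicate 2 the shares were 7.72% (55 of 712, 5.98 to 9.92), 5.35% (4.31 to 6.64) and 2.05%. There a wide peak under 2 members is counted for each of them. The intervals of groups and pairs overlapped in both lists. The widest grouped site, 2585 bp on chromosome 8 from 120488418 to 120491002, had folds of 14.3 and 24.8; it was picked after its values were seen. WT pileups did not follow the widths, at a median of 25 in groups, 24 in pairs and 25 at lone peaks in replicate 1. These differences in width are a description of sites chosen from the same calls and were not tested.

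**Figure D3:**
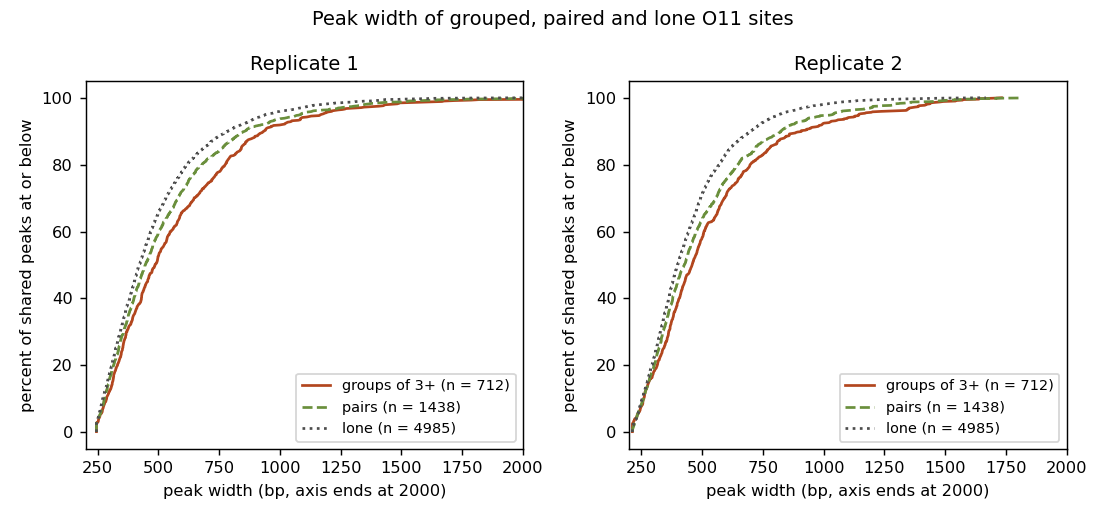
Cumulative share of shared peaks by peak width in bp (axis cut at 2000 bp) in replicate 1 and replicate 2. In both panels the curve of the 712 grouped sites lies to the right of the pairs, and the lone peaks lie to the left of both, with medians of 486, 446 and 422 bp in replicate 1.

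Groups ranged from even to very uneven. The strength of a site was taken as the mean of its log2 folds in the 2 replicates. Ratios of the strongest to the weakest site, here and below, are of the geometric mean of the 2 folds. By this ratio the strongest site of a group stood a median of 1.78 times above the weakest (1.70 to 1.92). It did so at least 2 times in 87 of 219 groups (39.7%) and under 1.5 times in 62 (28.3%). Since the extremes are picked by the same folds, the ratio is above 1 by construction and the contrast is a description only. The strongest sites had median folds of 8.76 and 13.1 in replicates 1 and 2, against 4.90 and 6.34 for the weakest. They were also wider, at a median of 610 bp in replicate 1 against 398 bp. A site with a fold of 10 or more in both replicates was present in 75 groups (34.2%), and in 58 of these there was exactly 1 such site. The Poisson intervals of the strongest and the weakest site were apart in 71 groups in replicate 1, in 112 in replicate 2 and in 52 (23.7%) in both. These intervals hold the o11 background fixed and the sites were picked by the same folds, so the counts are too high as a measure of separation.

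The strongest site had no fixed place within a group. In groups of 3 it was the first site in 63, the middle in 53 and the last in 61. Median folds of the first, middle and last site were 6.34, 6.48 and 6.09 in replicate 1 and 8.57, 8.78 and 9.03 in replicate 2, with overlapping intervals. Over all sizes the strongest site was at an end in 140 groups (63.9%, 57.4 to 70.0), a share that depends on how many sites a group has: it was 70.1% with 3 sites and 40.0% with 4.

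The replicates named the same strongest site in 123 of 219 groups (56.2%, 49.5 to 62.6), where a replicate 2 peak under 2 members counts for both. Where the best site of replicate 1 led the next by at least 1.5 times, this was so in 42 of 59 groups (71.2%, 58.6 to 81.2), and with a lead of 2 times in 13 of 15. Of the 164 groups of 3 with 3 different replicate 2 peaks, 52 had all sites in the same order of fold in both lists (31.7%, 25.1 to 39.2), and 9 had them in the opposite order. Across the 712 grouped sites, which share libraries and often local background, log2 folds of the 2 replicates correlated at 0.596 (Pearson) and 0.541 (Spearman). Lone peaks gave 0.541 and 0.495 (n = 4985). Fold was higher in replicate 2 at 574 grouped sites (80.6%, 77.6 to 83.4), near the 82.5% of all shared peaks on the 10 chromosomes. The 2 lists rest on different backgrounds and scalings, whose part in this direction was not tested.

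**Figure D4:**
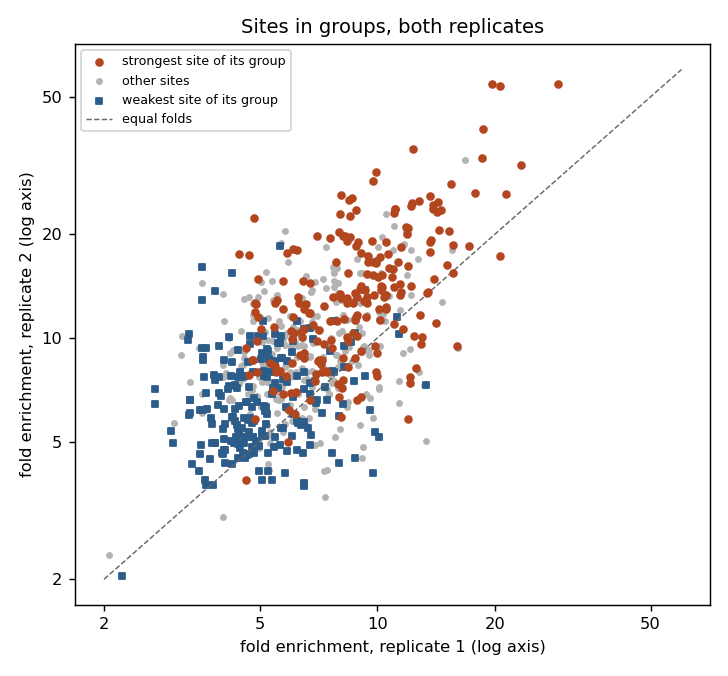
Fold enrichment in replicate 1 and replicate 2 (log axes) of the 712 grouped sites. Circles in red are the strongest site of each group by mean log2 fold, squares in blue the weakest, and small grey points the others, with a dashed line at equal folds. Strongest and weakest sites overlap in each replicate alone, with median folds of 8.76 and 4.90 in replicate 1.

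Neighbours in groups were compared in strength with the sites of pairs, which fall under the same 5000 bp limit, and with successive lone peaks, which lie farther apart. The median difference in strength was 0.47 on the log2 scale between neighbours in groups (0.43 to 0.52, n = 493), 0.47 between the sites of a pair (n = 719) and 0.49 between successive lone peaks (n = 4975). Neighbours within 1000 bp differed by 0.35 (0.29 to 0.48, n = 99), and those from 1000 to 2000 bp by 0.54 (0.45 to 0.64, n = 178). From 2000 to 3000 bp the difference was 0.43 (n = 90), and beyond that 0.48 (n = 126). The strengths of neighbours in groups correlated weakly, at 0.154 (Pearson) and 0.118 (Spearman) over the 473 neighbours on different replicate 2 peaks, beside 0.078 and 0.053 in pairs and 0.016 and 0.015 for successive lone peaks. Neighbours share libraries and local background. Pairs on the same replicate 2 peak, which share that fold by construction, are among the closest.

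The group with the most sites lay on chromosome 7 from 159175484 to 159180472, with 6 peaks in 4989 bp. Its WT pileups were between 17 and 25 in replicate 1 and between 17.14 and 35.13 in replicate 2, over o11 backgrounds of 2.54 to 4.72 and 1.75 to 3.62. Folds along the group were 4.02, 4.07, 6.42, 3.32, 4.25 and 5.08 in replicate 1. In replicate 2 they were 7.73, 7.82, 10.04, 6.60, 6.60 and 7.44. The third site was the highest in both lists, and 5 of the 6 stayed under the grouped median of 6.41 in replicate 1. The fourth and the fifth summits were 185 bp apart, the closest in any group, and rested on 1 replicate 2 peak.

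The strongest of the 5-site groups was on chromosome 7 from 130261886 to 130272555. Folds were 11.8, 15.5, 12.2, 6.25 and 12.2 in replicate 1 and 20.4, 18.0, 18.0, 11.2 and 24.2 in replicate 2, over o11 backgrounds of at most 3.0 in both. Only the fourth site stayed under 10 in a replicate, and the second led in replicate 1 but the fifth in replicate 2. The second and the third shared a replicate 2 peak of 1639 bp, and 1 unshared peak of each list also lay in the span. On chromosome 3, from 188722645 to 188732247, 5 sites had folds of 6.99, 14.1, 5.66, 8.88 and 8.10 in replicate 1 and of 11.6, 11, 10.1, 17.0 and 12.9 in replicate 2. The second site led in replicate 1 and the fourth in replicate 2, and the o11 background was lower at the leader each time: 2.82 at the second against 5.08 at the fourth in replicate 1, and 3.20 at the fourth against 6.0 at the second in replicate 2.

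The groups of 5 sites differed in evenness. On chromosome 5, from 197831553 to 197842711, folds were 6.79, 4.05, 11, 3.56 and 20.6 in replicate 1 and 8.05, 5.11, 21.2, 6.05 and 17.3 in replicate 2. Weak and strong sites alternated there, and the geometric mean fold of the strongest was 4.15 times that of the weakest. On chromosome 8, from 9998745 to 10006611, the second site had folds of 15.6 (Poisson interval 11.3 to 21.1) and 15.4 (10.8 to 21.3), while the other 4 ran from 3.58 to 8.38 and from 6.20 to 8.23. That second site led the group in fold in both lists, over o11 backgrounds of 1.62 and 0.958. Its WT pileups were 40 and 29.13, against 33 and 29.99 at the fifth site, where the backgrounds were 8.49 and 4.0. The part of the background in this lead was not tested.

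The next 3 were flatter or split between the lists. Between 21713494 and 21722634 on chromosome 1, replicate 1 folds spanned only 6.41 to 8.36 and replicate 2 folds 7.96 to 13.1. The 13.1 belonged to 1 replicate 2 peak of 1543 bp, to which both the second and the third site were matched. Its summit lay 976 bp from that of the third site. On chromosome 2, from 61501744 to 61510992, folds ran from 5.40 to 10.5 and from 7.19 to 20.3. The fifth site led there in replicate 1 but the fourth in replicate 2. The most compact 5-site group was also on chromosome 2, from 14473071 to 14475895, where summits were a mean of 614 bp apart. In that group the second and the third site, 408 bp apart, shared a replicate 2 peak of 768 bp. Its first site led in replicate 1 with a fold of 12.4, while in replicate 2 the fourth led with 11.5 over 10.1 at the first, within their Poisson intervals (8.31 to 15.7 and 7.61 to 13.3). The 4 weaker groups of 5 lay on chromosome 3 (22389568 to 22397500 and 173556766 to 173567871) and chromosome 6 (142746200 to 142756855 and 146310478 to 146317649). Their folds lay between 3.16 and 12.1 in replicate 1, and between 3.8 and 13.1 in replicate 2.

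**Figure D5:**
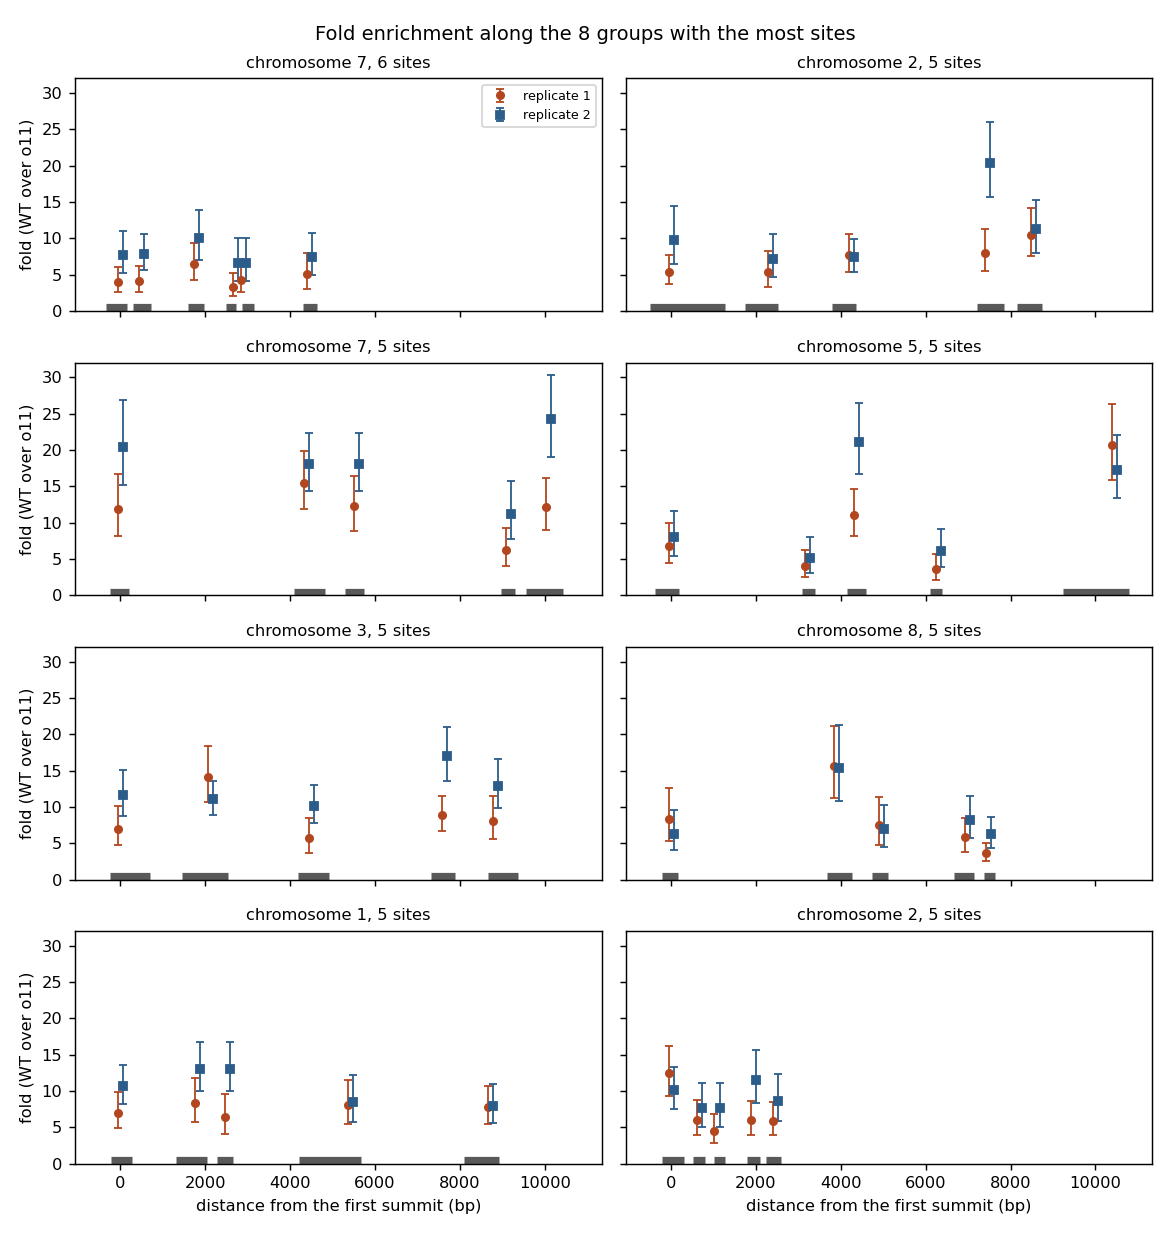
Fold enrichment, WT over o11, of each site in the 8 groups with the most sites (ties at 5 sites by mean strength), by distance in bp of its replicate 1 summit from the first summit. Circles are replicate 1 and squares replicate 2, drawn slightly apart, with exact 95% Poisson intervals, and grey bars at the foot are the replicate 1 peaks. Strong sites such as the last on chromosome 5 (20.6 and 17.3) stand beside weak ones. In the 6-site group on chromosome 7 the strongest site is 1.71 times the weakest in geometric mean fold, near the median of 1.78 over all groups.

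By mean strength the first group was on chromosome 7, from 121255009 to 121260633. Its 3 sites had WT pileups of 34, 55 and 43 in replicate 1 and 40.27, 107.97 and 66.84 in replicate 2, over o11 backgrounds of at most 2.77. Folds were 9.28, 19.7 and 16.8 in replicate 1 and 13.8, 54.5 and 32.9 in replicate 2. The middle site led in both, and its replicate 2 interval (45.5 to 64.8) lay above that of the last site (26.1 to 40.9).

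Next came 3 sites between 189549180 and 189554067 on chromosome 2, where folds were 12.0, 13.3 and 21.3 in replicate 1 and 20.2, 7.32 and 26.2 in replicate 2. The last site led in both lists. On chromosome 9, from 104075333 to 104079627, the middle site had folds of 20.6 and 53.6, against 8.16 and 6.46 at the first site and 10.1 and 11.3 at the last. That group is high mainly through this site, whose WT pileup was 78 in replicate 1 and 109.68 in replicate 2.

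On chromosome 5, from 193703521 to 193706399, 3 peaks of similar width stood in 2879 bp. They had folds of 12.3, 10.3 and 8.21 in replicate 1 and 24.7, 19.7 and 9.46 in replicate 2, so the order was the same in both. The strongest group of chromosome 6, from 148074813 to 148077940, had folds of 5.58, 10.5 and 9.92 in replicate 1 and 9.66, 22.9 and 30.3 in replicate 2. On chromosome 8 the first place went to 144725324 to 144732018, with folds of 13.7, 12.7 and 6.85 in replicate 1 and 19.3, 16.9 and 9.92 in replicate 2, again in the same order.

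The strongest groups of the other chromosomes were lower. On chromosome 3, from 22624994 to 22628907, folds were 15.6, 9.74 and 11 in replicate 1 and 18.6, 4.06 and 18.0 in replicate 2, where the o11 background at the middle site was 6.0. Chromosome 4 had its best group at 26448415 to 26452954, with 4 sites between 4.25 and 10.1 in replicate 1 and between 10.03 and 22.5 in replicate 2. Chromosome 10 had 3 sites from 141246121 to 141252842, with folds of 11, 12.1 and 7.75 in replicate 1 and 23.1, 9.31 and 11.2 in replicate 2. The replicate 2 WT pileups there were 47.13, 54.84 and 43.7, over o11 backgrounds of 1.09, 5.0 and 3.0. The middle site thus had the highest pileup and the lowest fold of that list. The order of the sites was the same in both lists on chromosome 3 and differed on chromosomes 4 and 10.

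A pair of groups on chromosome 1 stood 6052 bp apart, just too far to be chained. The first, from 16774623 to 16782485, was the strongest group of that chromosome, with folds of 17.8, 8.58 and 10.1 in replicate 1 and 26.4, 9.76 and 11.3 in replicate 2. The second, from 16787241 to 16795177, had 9.01, 29.0, 8.16 and 4.30 in replicate 1 and 14.0, 54.6, 11.7 and 4.97 in replicate 2. Its second site was the strongest of all grouped sites and stood 8.60 times above the weakest of its group, the widest range in any group. Together the neighbours held 7 sites in 20555 bp.

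In the other uneven groups the leading site also stood far above the weakest. On chromosome 9, from 11735042 to 11738231, the middle site had folds of 18.6 and 40.3 between sites of 3.75 and 5.86 on the left and 3.32 and 7.47 on the right. On chromosome 3, from 204716135 to 204722976, the last site had 23.2 and 31.8, while the other 2 stayed at 4.40 and 9.76 in replicate 1 and 7.71 and 5.86 in replicate 2. From 25916066 to 25923960 on the same chromosome, folds were 5.90, 12.8, 3.0 and 4.74 in replicate 1 and 16.6, 25, 4.96 and 6.03 in replicate 2. There the first and the second site were both high in replicate 2, with overlapping Poisson intervals (12.4 to 21.8 and 19.5 to 31.5). In these 3 groups the same site led in both replicates.

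In the 4 most even groups, of 3 sites each, the geometric mean fold of the strongest was at most 1.08 times that of the weakest. On chromosome 3, from 197346882 to 197352775, folds were 4.77, 4.58 and 4.53 in replicate 1 and 8.62, 7.76 and 8.33 in replicate 2, level in each list. Evenness in the mean did not always hold in each list. On chromosome 8, from 164788470 to 164792290, folds were 6.72, 5.10 and 9.13 in replicate 1 but 6.60, 7.97 and 4.48 in replicate 2, the opposite order. On chromosome 1, from 268495300 to 268500188, the middle site had the lowest fold of replicate 1 (3.84, over an o11 background of 9.43) and the highest of replicate 2 (13.7, over 1.70). On chromosome 2, from 208989967 to 208995129, replicate 1 folds spanned 5.24 to 6.48 and replicate 2 folds 8.74 to 9.84.

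Compact and loose groups lay at the ends of the range of spacing. In the tightest 3-site groups the mean spacing was 632.5 bp on chromosome 1 (282015817 to 282017545), 635.5 bp on chromosome 2 (24172269 to 24173965) and 635.5 bp on chromosome 3 (169761648 to 169763323). Their folds lay between 5.06 and 8.03 in replicate 1, and between 4.90 and 14.6 in replicate 2. In all 3 of them the leading site differed between the lists, while each site had a replicate 2 peak of its own.

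The loosest group had a mean spacing of 4549 bp, between 189512057 and 189521996 on chromosome 3, with folds of 6.27, 11.3 and 6.02 in replicate 1 and 5.68, 16.6 and 9.46 in replicate 2. After it came groups on chromosome 3 (195983465 to 195992716), chromosome 7 (165383942 to 165393064) and chromosome 2 (198472271 to 198480844), with mean spacings of 4275.5, 4190.5 and 4105 bp. Peaks covered 12.3% to 20.1% of these 4 spans. Over all 219 groups, mean spacing and strength had a Pearson correlation of 0.153 and a Spearman correlation of 0.142, across groups that share the same libraries.

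At the limit of 5000 bp, the 3 widest spacings kept were 4949 bp on chromosome 7, 4970 bp on chromosome 1 and 4983 bp on chromosome 10. The 3 nearest misses that would have made or enlarged a group were 5013 bp on chromosome 2, 5030 bp on chromosome 1 and 5071 bp on chromosome 1. Sites just inside had folds between 3.51 and 8.05 in replicate 1, and between 5.66 and 18.4 in replicate 2. Those just outside lay between 3.56 and 12.8, and between 5.43 and 25.7.

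Groups where the replicates disagreed most on the leading site, by the strength gap between the 2 leaders, lay on chromosomes 3, 9 and 10. On chromosome 3, from 169775943 to 169778992, replicate 1 had folds of 7.52, 7.0 and 3.65 while replicate 2 had 6.89, 19.8 and 9.37. On chromosome 9, from 133066569 to 133072580, they were 10.5, 5.36 and 3.56 against 13.3, 8.52 and 14.5. On chromosome 10, from 122272616 to 122279678, they were 6.24, 5.70 and 6.64 against 18.1, 7.21 and 5.47. The leads were small in 1 of the 2 lists each time, with overlapping Poisson intervals.

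Chromosomes differed in how many groups they held. Chromosome 2 had 35 groups, 2.26 per 10 Mb of the parts kept, and chromosome 1 had 42, or 2.15. Chromosome 4 had 10, or 0.636 per 10 Mb, and 32 of its 581 shared peaks were grouped (5.51%, 3.93 to 7.67), against 115 of 884 (13.0%, 10.95 to 15.4) on chromosome 2. The other 7 chromosomes had 12 to 27 groups, with 8.84% to 11.7% of their shared peaks in them, and on chromosome 1 the share was 10.3%. Intervals here treat peaks as independent, which grouped peaks are not, and are too narrow. The median fold of grouped sites was lowest on chromosome 6, at 5.70 and 7.17 in replicates 1 and 2, and highest on chromosome 7, at 7.29 and 9.97.

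Of the groups, 66 lay from 5% to under 30% of the chromosome and 153 from 55% to under 95%. The share of shared peaks that were grouped was nearly equal, 10.1% (8.92 to 11.5) in the first part and 9.92% (9.12 to 10.8) in the second. On chromosomes 7 and 10 the first part held 0 groups, and on chromosome 6 it held 1, among 104, 72 and 74 shared peaks. On the same chromosomes the second part held 17, 12 and 17 groups among 550, 297 and 457 shared peaks.

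No other group started within 1 Mb on either side in 118 of 219 cases (53.9%, 47.3 to 60.4). The nearest shared summit outside a group was a median of 41678 bp away (35161 to 48540). The fullest stretch was on chromosome 2, where 5 groups with 17 sites lay within 847 kb from 188706710 to 189554067 and took up 17 of the 20 shared peaks there. It included the 3 sites from 189119782 to 189124805, the only group whose folds were all 10 or more in both replicates. These were 14.0, 10.7 and 11.2 in replicate 1 and 14.8, 13.3 and 11.5 in replicate 2. Another 4 sites there, from 189058647 to 189070026, had folds of 12.2, 18.6, 5.51 and 6.47 in replicate 1 and 13.3, 33.3, 6.66 and 4.66 in replicate 2. The stretch and these groups were picked after their values were seen.

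Some groups also held peaks of 1 list alone. The spans added up to 1.16 Mb and held 32 unshared peaks of replicate 1 and 34 of replicate 2, with 164 groups holding none. That is 27.5 per Mb of span in replicate 1, against 2.55 per Mb over the chromosome parts kept, and 29.2 against 3.12 in replicate 2. The spans were chosen as places dense in peaks, so this is a description. Their median folds were 4.81 (4.23 to 5.22) in replicate 1 and 6.33 (5.71 to 7.28) in replicate 2, beside 4.64 and 6.46 for all unshared peaks on the 10 chromosomes. These peaks were thus weaker than the grouped sites, like unshared peaks elsewhere.

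A single group had high o11 coverage. On chromosome 6, from 39207596 to 39210957, 3 of its 4 sites had o11 backgrounds of 24.5, 72.6 and 25.5 in replicate 1 and 16.0, 41.0 and 23 in replicate 2. WT pileups at the 4 sites were 47, 102, 151 and 58 in replicate 1 and 29.99, 50.56, 97.69 and 47.99 in replicate 2. Folds were 4.60, 4.04, 2.06 and 2.23 in replicate 1 and 3.87, 3.03, 2.35 and 2.04 in replicate 2. The lowest folds of all grouped sites in both lists were in this group. It was picked after its values were seen. No other grouped site had a background of 10 or more.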

How the data were processed

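Kernels of WT and o11 plants supplied 2 ChIP-seq libraries each, and per the labels each list set WT (sample) over o11 (control) of 1 replicate number. The submitters' processing notes name Bowtie2 2.3.2 and MACS2 2.1.0 with B73 RefGen_v3, without settings. Per the file headers, the authors' deposited lists give the WT pileup (a coverage signal), the fold enrichment (a ratio) and positions. A pair of deposited columns with damaged names hold -log10 p and -log10 q, judged from the values: the second equalled the score of the deposited summit list at 100% of peaks. Pileups were multiples of 1 in replicate 1 and of 0.857 in replicate 2, so coverage was scaled in replicate 2, and a fold has a different base in each list.

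The o11 background was computed as (pileup + 1) divided by fold, minus 1. From it, a Poisson tail came within 0.02 of the deposited -log10 p at 100% of replicate 1 and 98.1% of replicate 2 peaks. For replicate 2 the pileup was rounded down, a choice made after rounding to the nearest whole number matched fewer peaks. A replicate 1 peak took the values of the overlapping replicate 2 peak with the nearest summit. Medians have exact binomial (order statistic) intervals, shares Wilson intervals and folds exact Poisson intervals, all at 95%. No hypothesis test was run, because the rule used the same contrast. The members and lists were chosen with earlier results of these data known. The comparison of neighbours' strengths, the separation of Poisson intervals within groups, the density of unshared peaks and the megabase counts were added after the values had been seen.

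Named groups follow a rule: the 8 with the most sites (ties by mean strength, which left out 4 of the 11 groups of 5), the 8 of highest mean strength, the strongest per chromosome, the 4 tightest and the 4 loosest, the 4 most and the 4 least uneven, and 3 where the leading site differed most between replicates. Python 3.11.15, NumPy 2.4.6, pandas 2.3.3 and SciPy 1.17.1 were used. The grouping code was tested on simulated data. Gene, sequence and motif content was not analysed here.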

Additional observations from a re-analysis of the deposited data

How the results depend on the processing

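Of 107 alternative values, 59 stayed within the interval of the value reported (counts within 1.5 times) and 48 moved further. The alternatives were fixed with earlier results of these data known. Chaining at 2000 bp left 79 groups and 248 sites (2.52% of shared peaks), a median spacing of 1159 bp, median folds of 6.01 and 7.99, a median width of 433 bp, 7.10% of neighbours on the same replicate 2 peak and 7 unshared peaks in the spans. At 3000 bp there were 129 groups, 410 sites (4.16%), a spacing of 1378 bp and 18 unshared peaks, and at 10000 bp 334 groups, 1141 sites (11.6%), a spacing of 2414 bp and 182 unshared peaks. Reciprocal overlap of at least 50% left 136 groups and 433 sites (4.94%), with median folds of 6.74 and 9.35, 0% of neighbours on the same replicate 2 peak and 37 unshared peaks. A -log10 q of at least 5 in both lists gave 6.01% of shared peaks, folds of 6.79 and 9.41, a width of 509.5 bp and 42 unshared peaks. Merging summits within 1000 bp gave 5.24%, a spacing of 2177 bp, a width of 525 bp and 1.16% on the same replicate 2 peak. With rows of replicate 2 as sites the share was 8.48%, the spacing 1631 bp, the replicate 1 fold 6.72 and the replicate 1 width 547.5 bp. These 257 groups overlapped 204 of the 219. In every part of the chromosomes the share was 9.93%. Without the other list, groups numbered 460 to 512 and sites 1581 to 1779, at spacings of 1689 and 1609 bp, with a replicate 1 fold of 5.6, a replicate 2 fold of 7.76 and a replicate 1 width of 427 bp. Shorter chains and stricter overlap give fewer sites by construction, and the causes of the shifts in fold and width were not tested. The share of groups with the same strongest site ran from 53.0% to 60.3% and that with the strongest at an end from 58.1% to 67.1%. No paired analysis was possible because the result comes from no test and WT and o11 enter only as 1 ratio per replicate. Depth is unknown from the lists.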
